A study of Mus musculus with 70 samples.

Results

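The 10 genes described here are outputs of the circadian clock grouped by a phase near that of Dbp, and their RNA was followed through lung tissue of mice given 13 different chemicals. They are Dbp, Tef and Hlf, Per1, Per2 and Per3, Nr1d1 and Nr1d2, and Ciart and Bhlhe41. They were chosen by gene symbol, and each was represented by its probe set with the highest mean over the 70 arrays. They are 10 of the 18193 genes that the arrays name, and all 10 passed the filter on dim probe sets that 14593 genes passed.

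The clock of mammalian cells is a feedback loop of transcription. The proteins CLOCK and BMAL1 (gene Arntl), or NPAS2 in the place of CLOCK, bind E-boxes and switch on the Per and Cry genes, whose proteins return to the nucleus and repress them. The same pair drives Nr1d1 and Nr1d2, which encode the REV-ERB receptors that repress Arntl, and Dbp, Tef and Hlf, which encode the PAR bZIP activators of genes with D-boxes. NFIL3 is the repressor that competes for D-boxes, and its RNA peaks opposite to that of Dbp. In lung, as in most tissues, these RNAs swing over the day, and Per1 also answers directly to glucocorticoids.

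The samples were right lung lobes of 70 female B6C3F1 mice, 1 array per animal, exposed for 13 weeks from 5 weeks of age and killed at 18 weeks of age. B6C3F1 is the hybrid mouse strain of rodent cancer bioassays, and per the labels 7 of the chemicals caused lung tumours there (positive below) and 6 did not (negative below). The number before the hyphen in the animal identifier splits the animals into set 1 and set 2, and the number after it is called the animal number here. The meaning of both, and the time of day at which animals were killed, are not given in the sources used here. In set 1, with 3 mice per group, feed held 1,5-naphthalenediamine at 2000 ppm (positive), N-(1-naphthyl)ethylenediamine dihydrochloride at 2000 ppm (negative), pentachloronitrobenzene at 8187 ppm (negative) or no chemical. Gavage in corn oil gave 2,3-benzofuran at 240 mg/kg (positive) or oil alone. In set 2, with 4 mice per group, feed held 2,2-bis(bromomethyl)-1,3-propanediol at 1250 ppm (positive), 4-nitroanthranilic acid at 10000 ppm, diazinon at 200 ppm, malathion at 16000 ppm (all negative) or no chemical. Corn oil gavage gave coumarin at 200 mg/kg, benzene at 100 mg/kg or, at 62 mg/kg, 1,2-dibromoethane (all positive). Oil alone was given to 8 mice of set 2. Gavage in water gave N-methylolacrylamide at 50 mg/kg (positive), 2-chloromethylpyridine hydrochloride at 250 mg/kg (negative) or water alone. Feed groups were exposed on 7 days a week and gavage groups on 5 days a week, with 5 ml/kg per gavage. The p-values of group differences below rest on the spread between animals within groups. Those of correlations come from permuting animals within groups, and those of slopes rest on the spread around a trend over animal numbers. Each chemical was given to 1 group, so none covers a spread between groups treated alike.

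The upstream sequences of 4 of the genes are shown because the clock acts on them through short motifs. They are 300-base windows from 250 bases before the annotated start to 50 after it, from RefSeq on build GRCm38.p6. Capitals mark an E-box (CACGTG) or a D-box (TTATGTAA, TTACGTAA or TTATGCAA), found on either strand. None of these words contains another. Dbp, whose level varied most, lies on the plus strand at chr7:45704997-45705296. Per3, which varied with Dbp, lies on the minus strand at chr4:151044616-151044915. Per1, on the plus strand at chr11:69098699-69098998 in the first of its 2 windows, and Ciart, on the minus strand at chr3:95882179-95882478, had no relation to Dbp that passed.
Dbp: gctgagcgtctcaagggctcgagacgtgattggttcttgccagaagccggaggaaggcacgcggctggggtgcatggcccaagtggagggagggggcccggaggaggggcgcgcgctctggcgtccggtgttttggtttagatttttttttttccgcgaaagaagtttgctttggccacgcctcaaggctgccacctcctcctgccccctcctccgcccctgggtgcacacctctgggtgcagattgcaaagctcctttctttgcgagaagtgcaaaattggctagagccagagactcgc
Per3: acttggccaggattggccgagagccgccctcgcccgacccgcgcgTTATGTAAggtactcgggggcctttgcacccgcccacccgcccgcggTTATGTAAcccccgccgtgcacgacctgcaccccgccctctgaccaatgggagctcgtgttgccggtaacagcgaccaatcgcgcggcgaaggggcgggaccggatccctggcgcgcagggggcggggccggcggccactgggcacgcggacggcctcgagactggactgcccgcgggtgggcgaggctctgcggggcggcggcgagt
Per1: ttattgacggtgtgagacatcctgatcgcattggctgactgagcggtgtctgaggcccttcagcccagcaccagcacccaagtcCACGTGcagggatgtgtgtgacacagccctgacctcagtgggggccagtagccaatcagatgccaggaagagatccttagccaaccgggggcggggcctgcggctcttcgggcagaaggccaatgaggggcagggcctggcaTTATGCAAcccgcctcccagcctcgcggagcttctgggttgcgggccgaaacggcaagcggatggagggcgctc
Ciart: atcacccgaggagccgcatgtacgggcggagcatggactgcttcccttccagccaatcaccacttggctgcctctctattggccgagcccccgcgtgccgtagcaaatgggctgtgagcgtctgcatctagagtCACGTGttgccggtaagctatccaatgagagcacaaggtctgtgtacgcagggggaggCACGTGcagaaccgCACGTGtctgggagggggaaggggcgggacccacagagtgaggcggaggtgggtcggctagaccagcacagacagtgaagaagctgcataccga
The Ciart window held 3 E-boxes, and 3 or more occurred in 0.0883% of 32851 mouse windows of this length. The Per3 window held 2 D-boxes, and 2 or more occurred in 0.0548% of them. Per1 held 1 E-box and 1 D-box, and Dbp held neither in this stretch. Over all 11 windows of the 9 genes with a window, 5 windows of 4 genes (Tef, Per1, Ciart and Bhlhe41) held an E-box, against 7.15% of all windows. D-boxes stood in 2 windows, against 1.78%. A match is a description of letters and not a site of binding.

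The arrays carried lung RNA by their marker genes. The means over 70 arrays were 14.4 on the log2 scale for Sftpc of type II cells, 14.1 for Ager of type I cells and 14.2 for Scgb1a1 of club cells. Markers of neighbouring organs varied between animals. The mean log2 level of 4 heart muscle markers ran from 6.67 to 11.0 over the arrays, and that of 4 hepatocyte markers from 4.84 to 9.72. In tissue pieces, fewer cells of a type and less RNA per cell cannot be told apart. The 3' minus 5' difference of control probe sets, a sign of RNA breakdown, had group medians between 0.109 and 0.318, and animal 56 of the 1,2-dibromoethane group stood at 0.989. RNA integrity numbers, labelled for most arrays, ran from 8.3 to 9.4 in set 1. In set 2 they ran from 7.1, in the same animal 56, to 8.8. Their part in the results below was not tested. Members with several probe sets had other ones that followed the one used to differing degrees. The other probe set of Dbp followed the one used with r = 0.973 within groups, that of Hlf with r = 0.827 and that of Nr1d2 with r = 0.881. The 2 others of Tef had r = 0.694 and 0.603 and those of Per2 r = 0.662 and 0.611, and the 5 others of Per3 lay between 0.360 and 0.859. Bhlhe41 had r = 0.385 between its probe sets and a mean of 4.82, at the 27.9th percentile of genes.

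Dbp, the PAR bZIP factor that gives the group its phase, covered the widest range. Its level ran from 5.13 to 10.7 on the log2 scale over the arrays. The standard deviation (SD) within groups was 1.04, the 23rd highest of 14593 genes, where the median gene had 0.193. In order of group means, the lowest were 1,5-naphthalenediamine (6.17 ± 0.66), pentachloronitrobenzene (6.69 ± 1.70), 2,3-benzofuran (7.16 ± 0.76) and the corn oil controls of set 2 (7.34 ± 1.27). The feed controls of set 1 (7.58 ± 0.72), the water controls (7.73 ± 1.24) and the feed controls of set 2 (7.79 ± 0.90) followed. N-methylolacrylamide (8.01 ± 1.91), diazinon (8.08 ± 1.19) and 4-nitroanthranilic acid (8.13 ± 1.13) stood in the middle. The corn oil controls of set 1 (8.74 ± 1.35), N-(1-naphthyl)ethylenediamine dihydrochloride (8.79 ± 0.49), 1,2-dibromoethane (9.08 ± 0.63) and benzene (9.36 ± 0.71) were higher. The highest means belonged to 2,2-bis(bromomethyl)-1,3-propanediol (9.63 ± 0.40), 2-chloromethylpyridine hydrochloride (9.65 ± 0.42), coumarin (9.72 ± 0.50) and malathion (10.1 ± 0.64). Errors are SDs, with n = 3 in set 1, 8 for corn oil controls of set 2 and 4 for the others. No neighbours in this order were further apart than 0.61, which is less than the SD within groups.

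The other members varied less within groups, in an order that runs by gene family only in part. Nr1d2 (SD 0.69, rank 88) and Nr1d1 (SD 0.60, rank 139), the REV-ERB receptors, came next. Among the Period genes, Per3 had an SD of 0.48 (rank 299), Per1 of 0.47 (rank 350) and Per2 of 0.40 (rank 743). Hlf stood at 0.36 and Tef at 0.31. Ciart, also called Chrono, a repressor of CLOCK and BMAL1, had an SD of 0.29. Bhlhe41, the E-box repressor DEC2, had 0.19 and stood at the 46.7th percentile. Group means spanned 2.70 for Nr1d2, 2.11 for Per2, 2.00 for Per3, 1.72 for Nr1d1, 1.64 for Tef, 1.42 for Per1, 1.19 for Hlf, 0.99 for Ciart and 0.46 for Bhlhe41. The widest step between neighbouring groups exceeded the SD within groups for Nr1d2 (1.00, water controls to corn oil controls of set 2), for Tef (0.35) and for Per2 (0.41), and for no other member.

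Animals of the same group that had more Dbp also had more of 5 other members. Deviations from the group means were correlated over the 70 animals, with the animals permuted within groups, two-sided, and p adjusted over 14 relations. Tef followed Dbp with Pearson's r = 0.846 and Spearman's rho = 0.830 (permutation p = 1e-05, adjusted 2.33e-05). Nr1d1 did so with r = 0.794 and rho = 0.811, Per3 with r = 0.793 and rho = 0.755 and Hlf with r = 0.716 and rho = 0.712, all at the same p, which is the smallest that the permutations can give. For Nr1d2, r was 0.652 and rho 0.682 (permutation p = 2e-05, adjusted 4e-05). Without the 2 animals with the most extreme Dbp these values of r lay between 0.677 and 0.836. Within set 2 alone they lay between 0.597 and 0.838, and within set 1 alone between 0.671 and 0.950. With 18 animals in set 1, Per3 did not pass there (r = 0.671, rho = 0.620, adjusted permutation p = 0.118).

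For the other 4 members no relation with Dbp passed by Pearson's r (Per2 passed by rho). Without the time of killing, these animals do not show the phase of a gene. For Per2 r was 0.286 and rho 0.316 (adjusted permutation p 0.0569 and 0.0406). Bhlhe41 had r = 0.152 and rho = 0.192 (adjusted permutation p = 0.227 and 0.171) and Ciart r = 0.118 and rho = 0.140 (0.361 and 0.308). Per1 had r = -0.04 and rho = -0.01 (adjusted permutation p = 0.73 and 0.924). In pairs among all 10 members, r ran from -0.34 (Per1 and Nr1d2) to 0.846 (Dbp and Tef), with a median of 0.381 over 45 pairs. Of these, 16 exceeded 0.5 and 7 were below 0. Per1 was nearest to Per2 (r = 0.432) and Ciart (r = 0.400). These pairs are a description of animals that share groups and sets.

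The genes listed as activators and opposite phase all had correlations with Dbp below 0 within groups. Nfil3, the D-box repressor, had r = -0.79 and rho = -0.76, and Arntl, which encodes BMAL1, had r = -0.75 and rho = -0.79 (permutation p = 1e-05, adjusted 2.33e-05 for both). Npas2 (r = -0.46, rho = -0.48) and Cry1 (r = -0.46, rho = -0.47) were also below 0, each with an adjusted permutation p of 0.00149. The mean of Npas2 over the arrays was low, at 4.67, near the filter at 4.25. In set 1 alone Npas2 did not pass (r = -0.52, rho = -0.62, adjusted permutation p = 0.118). Clock had r = -0.34 and rho = -0.37 (adjusted permutation p = 0.0238), and by r this relation did not pass in either set alone (adjusted permutation p = 0.118 in set 1 and 0.087 in set 2). The panels of deviations show Tef and Nr1d1 climbing with Dbp, Arntl descending, and Per1 without a slope.

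**Figure D1:**
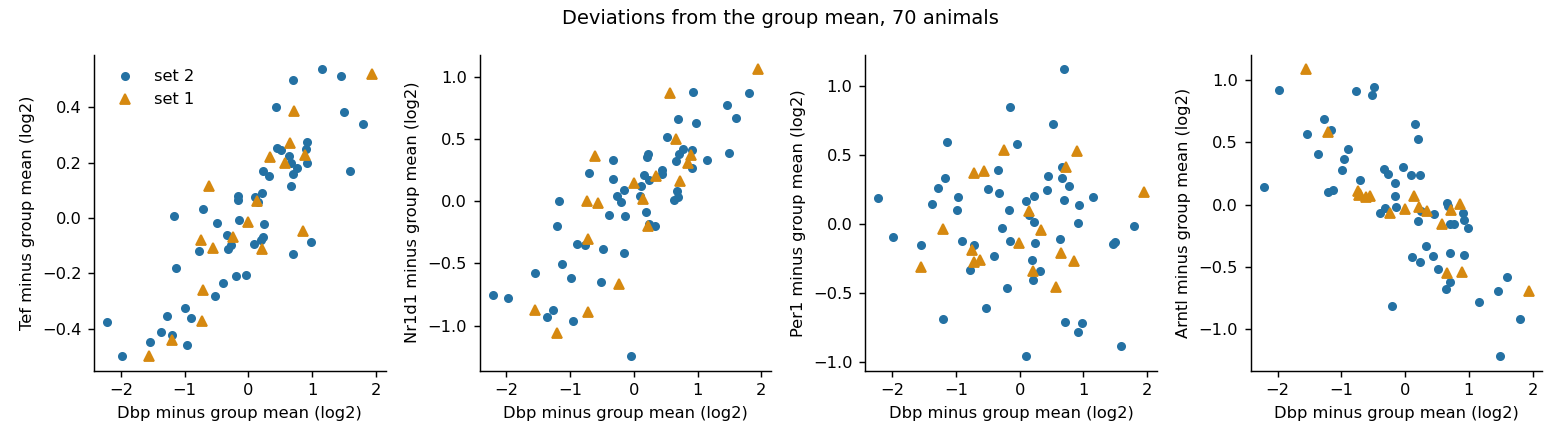
Each point is 1 of 70 animals. The x axis is the log2 level of Dbp minus its group mean, and the y axes are the same deviation of Tef, Nr1d1, Per1 and Arntl (set 1 triangles, set 2 circles). Tef (r = 0.846) and Nr1d1 (r = 0.794) go up with Dbp, Arntl goes down (r = -0.75), and Per1 shows no relation (r = -0.04).

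Per1 went with another list. Of the members, only Per1 and Dbp were set against the lists below, so a relation particular to Per1 is not shown. The mean of 10 glucocorticoid-induced genes such as Fkbp5 and Sgk1 followed Per1 within groups (r = 0.536, rho = 0.483, adjusted permutation p = 0.00016) and did not follow Dbp (r = 0.0315, rho = 0.0583, adjusted permutation p = 0.818). The mean of the immediate early genes, such as Fos and Egr1, was lower where Dbp was higher (r = -0.44, rho = -0.45, adjusted permutation p = 0.00914) and did not pass for Per1 (r = 0.286, rho = 0.257, adjusted permutation p = 0.0575). These 4 relations were chosen after the values were seen.

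Over all genes kept, the one most like the mean of the 10 standardized members within groups was Tspan4, with r = 0.801 over 70 animals. Slc1a5 (0.723), an amino acid transporter, and Pfkfb3 (0.702), which makes the activator of glycolysis fructose 2,6-bisphosphate, were next. Wee1 (0.664), a cell cycle kinase with a clock-driven promoter, and Cry2 (0.646), the partner of the PER proteins, followed. Cipc (0.635), an inhibitor of CLOCK, Cpt1a (0.631), of fatty acid import into mitochondria, Selenbp1 (0.615), Alas1 (0.596), the first enzyme of haem synthesis, and Paxip1 (0.582) completed the 10 highest. At the other end stood Spon2 (-0.80), Arntl (-0.79), Ppp1r3c (-0.73), Adm (-0.71), Klhl13 (-0.70), Rasl11a (-0.65), Mreg (-0.65), Snx18 (-0.63), Gfod1 (-0.63) and Dpy19l3 (-0.61). Ppp1r3c targets a phosphatase to glycogen and Adm encodes adrenomedullin. Usp2, a ubiquitin protease with a daily rhythm, ranked 18th (0.542). Tspan4, Wee1 and Usp2 belong to the list of other rhythmic outputs. In that list Tsc22d3 ranked 1403rd (0.23), and Leo1 went the other way (-0.51). These are descriptions, with no test.

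The differences among animals of a group went with their animal numbers. Within runs of neighbouring numbers of a group (gaps of at most 10, 20 runs in all), Dbp was higher in animals with higher numbers, by 0.247 ± 0.041 (SE) on the log2 scale per number (95% interval 0.165 to 0.329, limma adjusted p = 0.000244). In the feed controls of set 2 Dbp was 6.59 in animal 42, 7.63 in animal 43, 8.46 in animal 44 and 8.49 in animal 45. In the 4-nitroanthranilic acid group it was 6.58 in animal 13, 7.99 in animal 15, 8.90 in animal 17 and 9.05 in animal 19. With N-methylolacrylamide it was 6.73 and 6.02 in animals 101 and 102, and 9.80 and 9.47 in animals 106 and 109. Its slope was above 0 in 17 of 20 runs. The exceptions were malathion (10.7 in animal 33, 9.21 in animal 36), coumarin (9.40 in animal 72, 9.20 in animal 80) and corn oil controls 59 and 60 (7.30 and 5.13).

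In all, 6 of the 10 members had a slope on animal number that passed, all above 0, where 1.36% of 14593 genes passed in either direction. Nr1d2 had 0.152 ± 0.028 per number (adjusted p = 0.00104), Nr1d1 0.133 ± 0.023 (0.00051) and Per3 0.107 ± 0.020 (0.00144). Hlf had 0.07 ± 0.02 (adjusted p = 0.0128) and Tef 0.07 ± 0.01 (0.00146). Nr1d1 was higher with higher numbers in 19 of 20 runs. Per2 (0.038, 95% interval 0 to 0.075, adjusted p = 0.395), Per1 (-0.04, interval -0.09 to 0.01, adjusted p = 0.544), Ciart (0.012) and Bhlhe41 (0.0044) did not pass. These 4 are also the members whose relation to Dbp did not pass by Pearson's r. Dbp itself had a slope, and both come from the same animals, so they are not separate results.

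Among the genes listed as activators and opposite phase, Nfil3 fell by 0.149 ± 0.023 per number (adjusted p = 6.31e-05), Arntl by 0.106 ± 0.025 (0.0175) and Npas2 by 0.049 ± 0.011 (0.0147). Clock (-0.002) and Cry1 (-0.03) did not pass. Of the 8 measured genes among other clock components none passed, and of the 5 among other rhythmic outputs Tspan4 did, with 0.057 (adjusted p = 0.0227). This relation was noticed in these values and then tested on them, and what the numbers stand for was not tested.

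**Figure D2:**
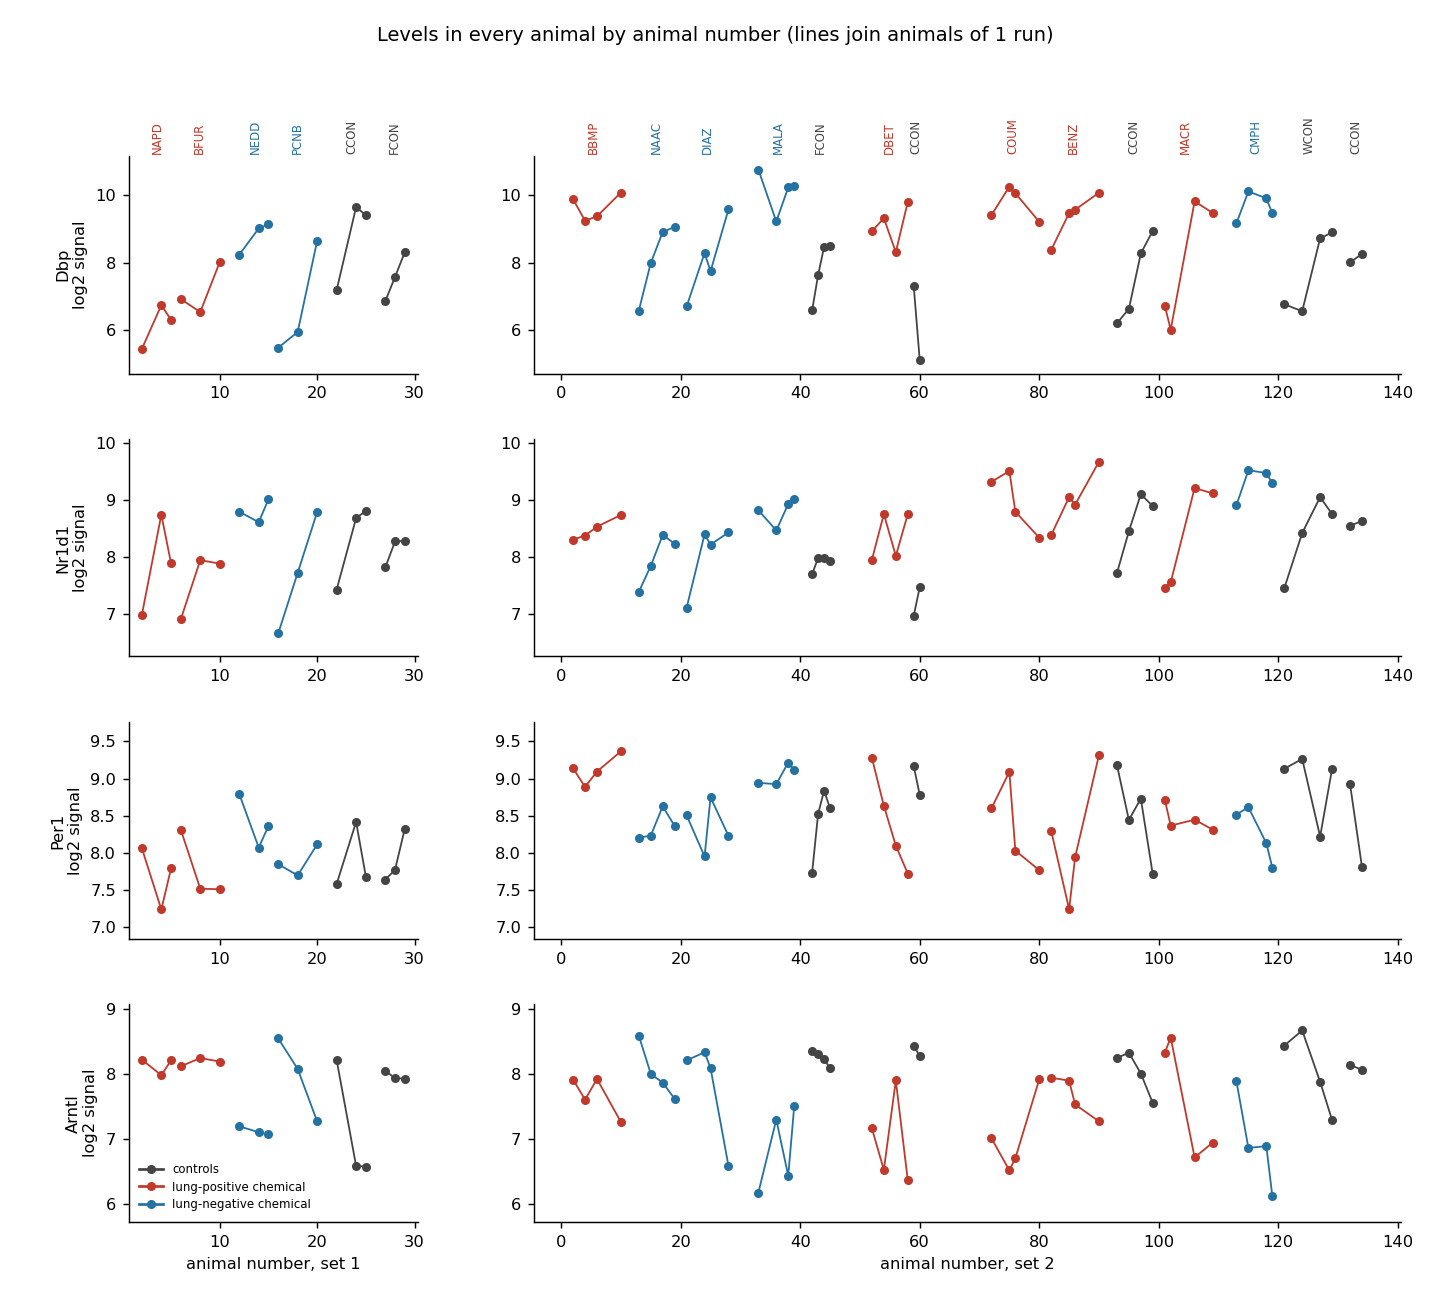
Log2 signal of Dbp, Nr1d1, Per1 and Arntl (rows) in each of 70 animals against its animal number, with set 1 on the left and set 2 on the right. Lines join animals of 1 run, and colours mark controls and positive or negative chemicals. Codes above are NAPD 1,5-naphthalenediamine, BFUR 2,3-benzofuran, NEDD the ethylenediamine compound, PCNB pentachloronitrobenzene, BBMP 2,2-bis(bromomethyl)-1,3-propanediol, NAAC 4-nitroanthranilic acid, DIAZ diazinon, MALA malathion, DBET 1,2-dibromoethane, COUM coumarin, BENZ benzene, MACR N-methylolacrylamide, CMPH 2-chloromethylpyridine hydrochloride, and CCON corn oil, FCON feed and WCON water controls. Dbp climbs within most runs, by 0.247 per number on average, Arntl descends, and Per1 does neither.

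The slope of Dbp was above 0 in both sets. The sets, the controls and the treated animals are parts of the animals in which the slope was noticed. The values of these parts therefore describe the slope and are not separate tests of it. In set 1 alone Dbp had 0.523 per number (adjusted p = 0.0398) and 2 members passed, Dbp and Nr1d2, where 0.0617% of genes did. In set 2 alone Dbp had 0.219 (adjusted p = 0.00899) and 5 passed, where 0.37% of genes did. In the control animals alone 5 members passed (0.637% of genes), with 0.410 for Dbp and 0.356 for Nr1d2. In the treated animals alone none passed by limma (0.0548% of genes), with 0.205 for Dbp (unadjusted p = 4.99e-05, adjusted 0.0628) and 0.0998 for Nr1d2. The difference of the slopes, treated minus controls, passed for no gene of 14593 (0%). For Dbp it was -0.20 (95% interval -0.40 to -0.01, adjusted p = 0.394) and for Nr1d2 -0.26 (-0.38 to -0.14, unadjusted p = 8.46e-05, adjusted 0.159).

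**Figure D3:**
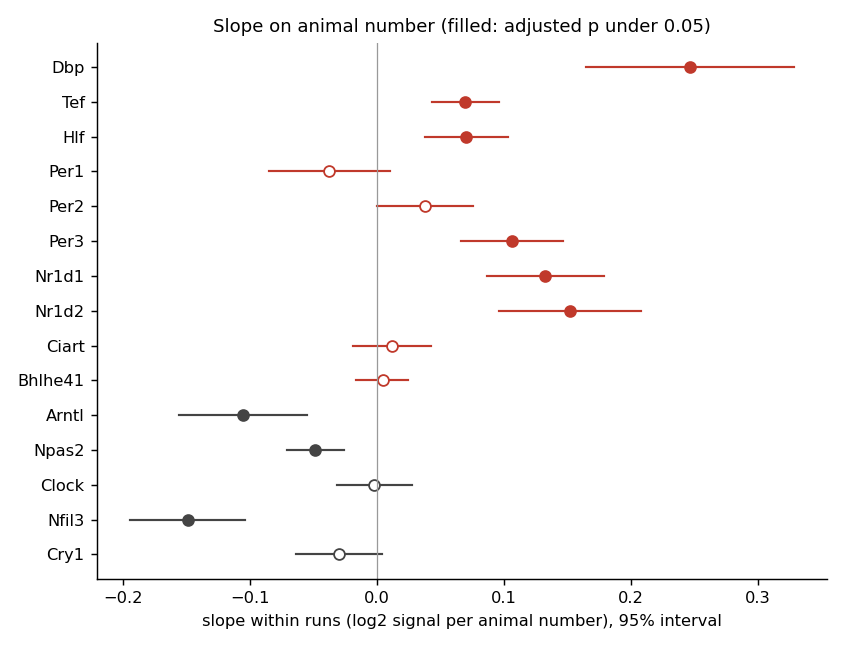
Slopes of log2 signal on animal number within runs for the 10 members (red) and 5 genes of the activators and the opposite phase (grey), with 95% intervals. Filled points have an adjusted p under 0.05. Dbp stands farthest to the right at 0.247 and Nfil3 farthest to the left at -0.15.

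Each chemical was then set against controls of the same vehicle and set, with 1 limma fit over all groups and p adjusted over 14593 genes. Over the 13 chemicals 6 changes of members passed, all of them rises: Dbp, Tef and Per3 with coumarin, Hlf and Per3 with 1,2-dibromoethane, and Nr1d2 with N-methylolacrylamide. Of all genes, 4.09% were called with coumarin, 4.03% with 1,2-dibromoethane and 17.9% with N-methylolacrylamide. With the other chemicals the share ran from 0% to 4.07%. All 3 chemicals are of the positive class. No test between classes was made. As p was adjusted within each comparison, a call also depends on how many other genes pass there. Dbp had an unadjusted limma p of 0.0016 with benzene (positive, adjusted 0.415) and 0.0018 with malathion (negative, adjusted 0.0628). Nr1d2 had a larger estimate with 2-chloromethylpyridine hydrochloride (negative), where 0% of genes were called, than with N-methylolacrylamide. The calls therefore do not set the positive class apart. Estimates for Dbp ran from -1.58 to 2.38 over the 7 positive chemicals and from -0.89 to 2.31 over the 6 negative ones. Chemicals given in the same vehicle and set share their controls, so a low or high control animal enters each of those comparisons. Each chemical group also had its own run of animal numbers, apart from the numbers of its controls. A change with a chemical therefore cannot be told apart from whatever those numbers stand for. Where a gene is said to overlap or not between groups, this describes the animals, and the share of all genes without overlap is not given.

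**Figure D4:**
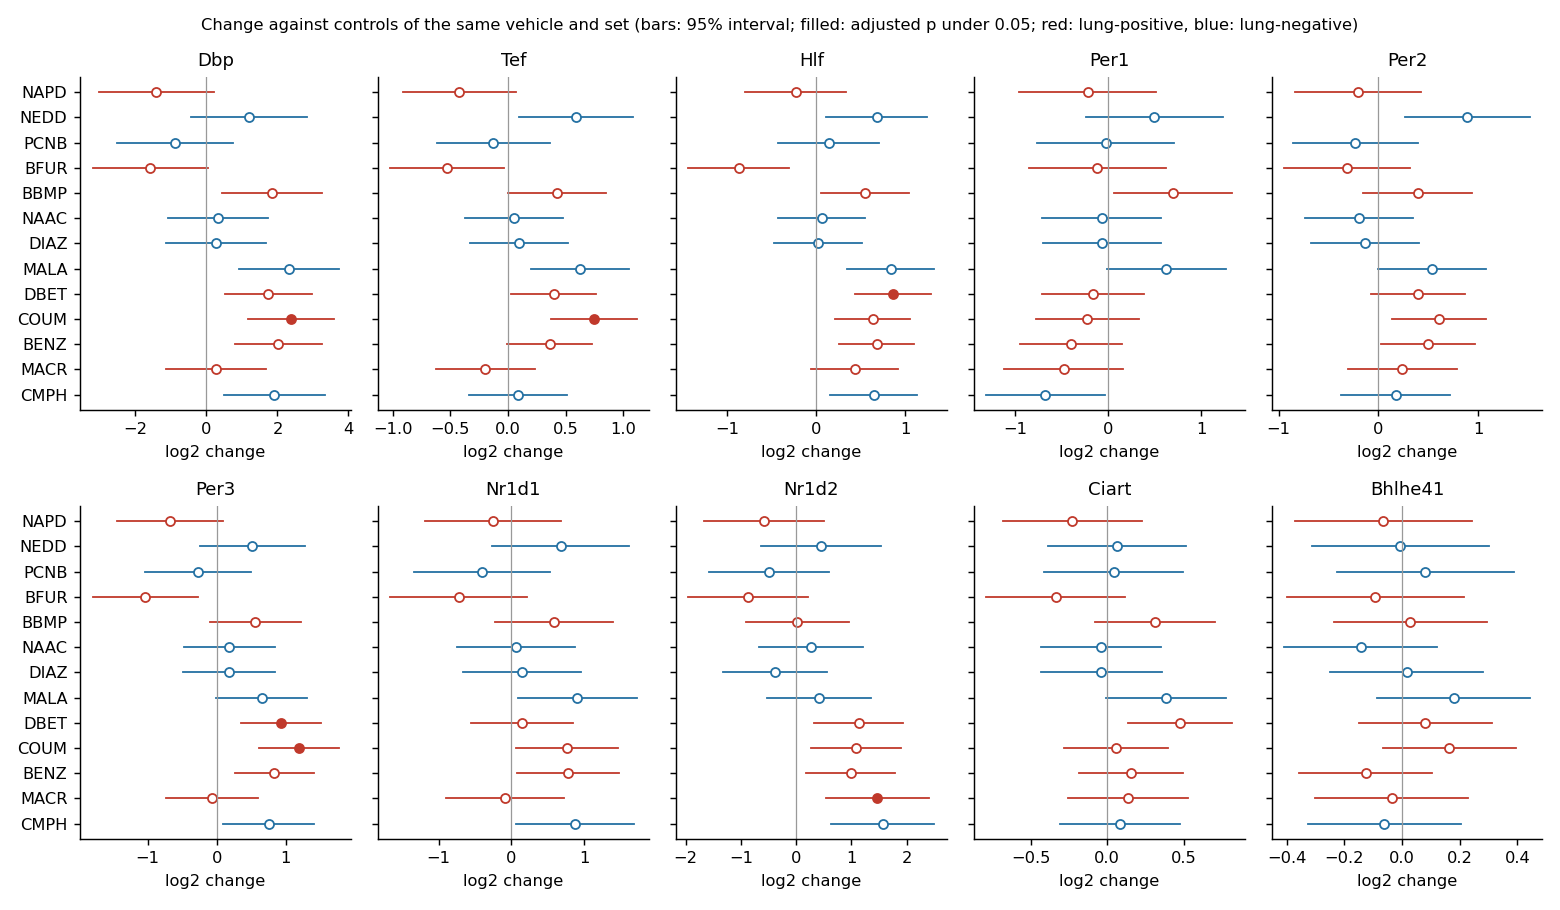
Log2 change of each member (panels) with each chemical against controls of the same vehicle and set, with 95% intervals. Red marks chemicals classed positive for lung tumours and blue negative, and filled points have an adjusted p under 0.05. The 6 filled points are Dbp, Tef and Per3 with coumarin (COUM), Hlf and Per3 with 1,2-dibromoethane (DBET) and Nr1d2 with N-methylolacrylamide (MACR).

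Coumarin, a lactone found in plants, went with higher Dbp, Tef and Per3. Dbp was 9.40, 10.2, 10.1 and 9.20 in the 4 treated animals. The 8 corn oil controls had a lowest value of 5.13, a median of 7.65 and a highest of 8.94, so that every treated animal lay above every control. The rise was 2.38 ± 0.61 on the log2 scale, or 5.20-fold (95% interval 1.16 to 3.60, adjusted p = 0.012). Tef was 10.6, 10.9, 10.8 and 10.4 with coumarin and between 9.57 and 10.2 in the controls, a rise of 0.75 ± 0.18 (1.68-fold, adjusted p = 0.0086). These groups did not overlap either. Per3 was 7.89, 8.65, 8.69 and 8.28, and between 6.58 and 7.95 in the controls, a rise of 1.19 ± 0.29 (2.28-fold, adjusted p = 0.00659), and the lowest treated animal lay below the highest control. These 3 of 10 members compare with 4.09% of all genes.

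The other 7 members had estimates from -0.22 (Per1) to 1.09 (Nr1d2) with coumarin and did not pass. Arntl fell by 1.09 ± 0.32 (adjusted p = 0.0371) and Nfil3 by 1.26 ± 0.34 (0.0207), and all 4 treated animals were below all 8 controls for Nfil3. Usp2 rose by 0.40 (adjusted p = 0.033), the only gene called of 5 other rhythmic outputs, and none of 8 other clock components passed. Markers of ciliated cells were higher in the same animals, 4 of 5 called with a median of 0.71, and 2 of 4 club cell markers were called higher. Of 9 immediate early genes kept, 3 were called lower, with a median of -0.65. The part of these in the result was not tested. Without treated animal 75, Dbp (2.21, adjusted p = 0.055) and Tef (0.66, 0.0546) no longer passed. That animal had the lowest RNA integrity number of its group (7.4). Dbp also lost its call with only the arrays compared (adjusted p = 0.0862), and Tef with the mean over its probe sets (0.50, adjusted p = 0.0886). Without control 99, Hlf and Nr1d2 also passed, 5 members in all. Against the 4 controls numbered from 93 to 99 Per3 did not pass (0.889, adjusted p = 0.0652).

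1,2-Dibromoethane, an alkylating fumigant, went with higher Hlf and Per3. Hlf was 6.46, 6.76, 6.34 and 6.86 in the treated animals. In the corn oil controls its lowest value was 5.42, its median 5.66 and its highest 6.25, and the groups did not overlap. The rise was 0.86 ± 0.21 (1.82-fold, 95% interval 0.44 to 1.28, adjusted p = 0.0123). Per3 was 8.02, 8.54, 7.79 and 8.11, a rise of 0.93 ± 0.29 (1.91-fold, adjusted p = 0.0488) with groups that overlapped. These 2 of 10 members compare with 4.03% of all genes. Dbp was 8.92, 9.31, 8.31 and 9.79, with an estimate of 1.74 ± 0.61 (adjusted p = 0.0904). Nr1d2 had 1.13 (adjusted p = 0.0969) and Ciart 0.48 (0.0951).

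With 1,2-dibromoethane Arntl fell by 1.14 ± 0.32 (adjusted p = 0.0319), as the only call among 5 activators and opposite-phase genes. Csnk1e, a kinase of the PER proteins, fell by 0.29 (adjusted p = 0.0375), 1 of 8 other clock components. Usp2 rose by 0.39 (0.0412). Of the ciliated cell markers 3 of 5 were called higher, with a median of 0.56, and of the type II cell markers 3 of 5 were called lower, with a median of -0.21. Their part was not tested. Per3 passed in 7 of 21 alternative fits. It did not pass without control 132 (0.88, adjusted p = 0.0812), 59 (0.87, 0.0839), 60 (0.85, 0.0699), 93 (0.89, 0.0779) or 95 (0.95, 0.055), or without treated animal 52 (0.96, 0.0719), 54 (0.79, 0.171), 56 (1.04, 0.0516) or 58 (0.93, 0.103). With only the arrays compared, neither Hlf (adjusted p = 0.08) nor Per3 (0.22) passed. Without animal 58 Hlf did not pass either (0.78, adjusted p = 0.0577), and without control 99 Dbp did (1.97, adjusted p = 0.0469), as did Nr1d2.

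Benzene, with the same controls, gave no call among the members by limma, where 0.0891% of genes were called, but 6 of 10 members had an unadjusted p under 0.05, against 9.47% of genes. Dbp was 8.37, 9.46, 9.56 and 10.1, with an estimate of 2.02 ± 0.61 (4.05-fold, adjusted p = 0.415), and 1 treated animal lay below the highest control. Hlf was 6.31, 6.31, 6.52 and 6.55, above all controls, with an estimate of 0.68 ± 0.21 (adjusted p = 0.415). Per3 had 0.83, Nr1d2 0.99, Nr1d1 0.78 and Per2 0.49, each with its interval above 0.

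Among the feed chemicals of set 2, no member was called. Malathion, an organophosphate insecticide, had 4 of 10 members at an unadjusted p under 0.05, against 17.5% of genes, and 2.19% of genes called. Dbp was 10.7, 9.21, 10.2 and 10.3, above the feed controls' 6.59 to 8.49, with an estimate of 2.31 ± 0.70 (4.97-fold, 95% interval 0.90 to 3.72, adjusted p = 0.0628). Hlf was 6.98, 6.48, 7.00 and 6.74, also above all controls (5.65 to 6.34), with an estimate of 0.84 ± 0.24 (adjusted p = 0.0505). Without control 44 or treated animal 36 Hlf passed. Arntl fell by 1.39 ± 0.37 (adjusted p = 0.0324), with 6.18, 7.30, 6.44 and 7.51 against 8.09 to 8.35 in the controls. Tspan4 rose by 1.03 (adjusted p = 0.00235) and Leo1 fell by 0.71 (0.0142). Of the club cell markers 3 of 4 were called lower, with a median of -0.36, and of the lymphocyte markers 2 of 5 higher, with a median of 0.50. The mean of the neutrophil markers was 8.66 to 10.0 against 7.38 to 8.45 in the controls. The part of these was not tested.

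With 2,2-bis(bromomethyl)-1,3-propanediol, a brominated flame retardant, no gene at all was called (0%), and 4 members had an unadjusted p under 0.05, against 10.7% of genes. Dbp was 9.87, 9.23, 9.36 and 10.1, above all 4 controls, with an estimate of 1.84 ± 0.70 (adjusted p = 0.378). Per1 was 9.14, 8.89, 9.09 and 9.37 against 7.73 to 8.84, with an estimate of 0.70 ± 0.32 (adjusted p = 0.44). For 4-nitroanthranilic acid 0 of 10 members had an unadjusted p under 0.05 (1.86% of genes, and 0% called after adjustment), with Dbp at 0.34 (95% interval -1.07 to 1.75). For diazinon it was also 0 of 10 (4.89% of genes unadjusted, 0.00685% called), with Dbp at 0.28 (-1.13 to 1.69). Diazinon and malathion are both organophosphorus insecticides, but their doses in feed were 200 and 16000 ppm. Side by side, Dbp had group means of 8.08 ± 1.19 and 10.1 ± 0.64, Hlf of 5.99 ± 0.68 and 6.80 ± 0.24 and Per3 of 7.62 ± 0.46 and 8.09 ± 0.41 (SD, n = 4), and the difference in dose leaves no comparison of the compounds.

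The water gavage chemicals shared controls with low Nr1d2. Nr1d2, which encodes REV-ERB beta, was 6.89, 6.93, 8.32 and 9.66 in the 4 water controls. With N-methylolacrylamide, a monomer related to acrylamide, it was 8.32, 8.87, 10.5 and 10.00, a rise of 1.47 ± 0.47 (2.78-fold, 95% interval 0.54 to 2.41, adjusted p = 0.0244). The groups overlapped. This single call among 10 members compares with 17.9% of all genes. Dbp had an estimate of 0.27 ± 0.70 (adjusted p = 0.823). Clock rose by 0.58 (adjusted p = 0.0447) and Rora, the activator of Arntl that competes with the REV-ERBs, by 0.64 (0.0497), the only calls of 5 and 8 genes in their lists. The Nr1d2 call was lost without control 121 (1.12, adjusted p = 0.126), control 124 (1.13, 0.158), treated animal 106 (1.11, 0.137) or treated animal 109 (1.28, 0.071), with the mean over its probe sets (1.11, 0.0703) and with only the arrays compared (adjusted p = 0.139). Without treated animal 101, Hlf also passed.

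With 2-chloromethylpyridine hydrochloride no gene was called (0%), and 6 members had an unadjusted p under 0.05, against 11.7% of genes. Nr1d2 was 9.05, 9.40, 9.34 and 10.3, with an estimate of 1.57 ± 0.47 (adjusted p = 0.351). Dbp was 9.16, 10.1, 9.89 and 9.45, above all water controls (6.57 to 8.89), with an estimate of 1.92 ± 0.70 (3.77-fold, adjusted p = 0.351). Per1 pointed the other way, at -0.67 ± 0.32 (adjusted p = 0.405), with 8.52, 8.61, 8.13 and 7.80 against 8.22 to 9.26.

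In set 1 no member passed with any of the 4 chemicals. 1,5-Naphthalenediamine gave estimates below 0 for all 10 members, the lowest for Dbp at -1.41 ± 0.81 (adjusted p = 0.689), and 0 members at an unadjusted p under 0.05 (8.85% of genes unadjusted, 1.11% called). The estimates come from the same animals, in which several members varied together, so the shared sign is not 10 separate results. The share of all genes with that sign is not given. Dbp was 5.46, 6.74 and 6.31 against 6.86, 7.58 and 8.31 in the feed controls, without overlap. N-(1-naphthyl)ethylenediamine dihydrochloride had 3 members at an unadjusted p under 0.05 (7.56% of genes, 0.00685% called), with Per2 at 0.89 ± 0.31, Hlf at 0.68 ± 0.28 and Tef at 0.59 ± 0.25. Pentachloronitrobenzene had 0 (2.94% of genes unadjusted, 0.00685% called), with Dbp at 5.49, 5.95 and 8.64. 2,3-Benzofuran had 3 (17% of genes unadjusted, 4.07% called), with Hlf at -0.87 ± 0.28 (adjusted p = 0.0641), Per3 at -1.03 ± 0.38 (0.112) and Tef at -0.53 ± 0.25 (0.245). Hlf was 6.17, 6.11 and 5.90 against 6.32, 7.27 and 7.20 in the corn oil controls of set 1. Without control 22, which had the lowest Dbp of its group (7.19, against 9.64 and 9.40), Hlf passed. Without treated animal 8, Per3 passed.

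The 2 naphthalene amines were given at the same 2000 ppm in feed for the same time and were compared directly, as the only pair of compounds tested. In 1,5-naphthalenediamine both amino groups sit on the ring system, and in the other compound 1 ring-bound nitrogen carries an aminoethyl chain. Tef was 8.79, 9.25 and 9.11 with the diamine and 9.95, 9.95 and 10.3 with the ethylenediamine compound. It was lower with the diamine by 1.01 ± 0.25 on the log2 scale (2.02-fold, 95% interval -1.50 to -0.52, adjusted p = 0.0109). This was 1 call among 10 members, where 1.67% of genes were called. Dbp was 5.46, 6.74 and 6.31 against 8.23, 9.01 and 9.13, with an estimate of -2.62 ± 0.81 (-4.25 to -0.99, adjusted p = 0.0907). Per2 was 6.33, 5.27 and 6.12 against 7.19, 6.99 and 6.83, at -1.10 ± 0.31 (-1.72 to -0.47, adjusted p = 0.0535). Neither gene overlapped between the groups, which describes 3 animals against 3, without the share of all genes beside it. All 10 estimates were below 0, with a median of -0.97 against -0.01 over all genes, and the intervals included 0 for Ciart (-0.75 to 0.16), Bhlhe41 (-0.37 to 0.25), Per1 (-1.45 to 0.02), Nr1d1 (-1.87 to 0.0067) and Nr1d2 (-2.11 to 0.06). Several members varied together within groups, and the estimates come from the same animals, so the shared sign is not 10 separate results. The share of all genes with an estimate below 0 is not given.

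The Tef difference between the naphthalene amines was lost without animal 2 of the diamine group (-0.88, adjusted p = 0.113), without animal 15 of the other (-0.90, 0.111), and with the mean over all 3 Tef probe sets (-0.64, 0.195). None of the 5 activators and opposite-phase genes passed in this contrast, with Arntl at 1.01 ± 0.43 (adjusted p = 0.33) and Npas2 at 0.58 (0.144). Of 5 ciliated cell markers 2 were called higher with the diamine, with a median of 0.59, and the list means were 9.20 to 9.26 against 8.57 to 8.63. Macrophage markers were also higher with the diamine without overlap (9.07 to 9.43 against 8.54 to 8.75), and endothelial (10.4 to 10.5 against 10.7 to 10.8) and type I cell markers (11.6 to 11.7 against 11.8 to 11.9) lower. Their part was not tested.

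Control animals differed between vehicles and sets. In set 2, Nr1d2 fell by 1.44 ± 0.47 in water controls relative to feed controls (8.95 to 9.70 in the 4 feed controls, adjusted p = 0.0141), the only member called, where 33.7% of genes were. The call was lost without water control 121 (-1.09, adjusted p = 0.0915) or 124 (-1.10, 0.101), with the mean over its probe sets (-1.03, 0.0622) and with only the arrays compared (adjusted p = 0.0616). The 3' minus 5' difference was 0.0832 to 0.164 in water controls and 0.205 to 0.393 in feed controls. List means also did not overlap for macrophage markers (8.64 to 9.13 against 9.19 to 9.56), hepatocyte markers (5.80 to 6.61 against 6.71 to 8.43) and type II cell markers (13.2 to 13.3 against 13.0 to 13.1). Of the endothelial markers 3 of 5 were called higher in water controls. The part of these in the result was not tested. Clock fell in the same contrast by 0.85 (adjusted p = 0.00152) and Rora by 0.61 (0.0374), while Npas2 rose by 0.44 (0.0404) and Csnk1d by 0.33 (0.0282). Between corn oil and water controls no member passed (22.9% of genes called, 1 member against 37.7% of genes unadjusted), with Nr1d2 at 1.00 ± 0.41 (adjusted p = 0.0647), and it passed without water control 129 or without corn oil control 132 or 59. Clock (0.565, adjusted p = 0.0202) and Csnk1d (-0.49, 0.000946) were called. Between corn oil and feed controls no member passed in set 2 (3.46% of genes, 0 members against 20.3% unadjusted). None passed in set 1 either (0% of genes, 2 members against 1.82% unadjusted). The difference between these 2 vehicle contrasts was called for no gene (0%) and had an unadjusted p under 0.05 for 1 member, Hlf (5.09% of genes).

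Between sets, the feed controls differed in Per2 and Tef. Per2 was 5.54, 6.12 and 6.68 in set 1 and 6.94, 7.57, 7.84 and 7.36 in set 2, lower in set 1 by 1.32 ± 0.29 (2.49-fold, adjusted p = 0.000373) and without overlap. Tef was lower by 0.55 ± 0.23 (adjusted p = 0.0469). These 2 calls compare with 41.5% of genes. Among corn oil controls, Hlf was higher in set 1 by 1.19 ± 0.23 (2.28-fold, adjusted p = 2.93e-05), with 6.32, 7.27 and 7.20 against a highest value of 6.25 in set 2. Nr1d2 was higher by 1.69 ± 0.45 (3.22-fold, adjusted p = 0.00128), and Per1 lower by 0.70 ± 0.30 (adjusted p = 0.0452). These 3 calls compare with 55.5% of genes. Clock (1.06) and Rora (1.24) were higher in set 1 here, and Arntl, Nfil3 (-1.37), Cry2 (-0.57) and Timeless (-0.46) lower. In feed controls Clock (0.80), Rora (1.08) and Leo1 (0.63) were higher in set 1, and Cry1 (-0.65), Cry2 (-0.63), Bhlhe40 (-0.57), Timeless (-0.46), Csnk1d (-0.35), Tspan4 (-0.63) and Usp2 (-0.58) lower. All 4 hepatocyte markers were called lower in set 1 feed controls, with a median of -1.68. The list means of set 1 also lay apart, lower for type I cell markers (11.8 to 11.9 against 12.1 to 12.2), club cell markers (12.6 to 12.7 against 12.7 to 12.9) and immediate early genes (8.43 to 8.48 against 8.79 to 9.03). They were higher for neutrophil (9.26 to 9.56 against 7.38 to 8.45), endothelial (10.6 to 10.9 against 10.3 to 10.6) and fibroblast markers (10.6 to 10.8 against 10.3 to 10.6). In corn oil controls, type I cell markers (11.7 to 11.9 against 12.1 to 12.2), hepatocyte markers (4.84 to 5.33 against 5.65 to 8.33) and immediate early genes (8.38 to 8.54 against 8.91 to 9.30) were lower in set 1 without overlap. The part of these lists was not tested. Set cannot be told apart from whatever else differed between the 2 sets.

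The Tef call between feed controls was lost without set 1 control 27 (-0.37, adjusted p = 0.26) or 28 (-0.55, 0.101), and without set 2 control 43 (-0.53, 0.0891), 44 (-0.49, 0.12) or 45 (-0.50, 0.103). It was also lost with no filter (adjusted p = 0.0558) and with renewed quantile normalization (0.0607). The Per1 call between corn oil controls was lost without set 1 control 22 (-0.55, adjusted p = 0.208) or 25 (-0.60, 0.155), and without set 2 control 132 (-0.65, 0.0736), 59 (-0.62, 0.0829), 60 (-0.68, 0.0604), 93 (-0.62, 0.083) or 97 (-0.68, 0.0592). It was also lost with no filter (adjusted p = 0.0525), renewed quantile normalization (0.0816) and only the arrays compared (0.0901). Per2 between feed controls, and Hlf and Nr1d2 between corn oil controls, passed in every fit that left out 1 animal.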

How the data were processed

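RNA of 70 right lung lobes was hybridized to Affymetrix mouse genome arrays, per the labels. The deposited probe set signals lie on a log2 scale by their range (2.47 to 14.5, array medians 5.41 to 5.52), and the sources used here do not give how the authors summarized and normalized them. The number of arrays limits the precision. Gene symbols came from the platform's annotation, updated through RefSeq (GRCm38.p6), for probe sets with a single symbol. The probe set with the highest mean stood for its gene. Genes with a mean above the 30th percentile of probe sets (4.25) were kept, 14593 of 18193.

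Groups followed chemical, vehicle and set. The fit gave each of the 18 groups its own mean over the 70 arrays (lmFit and eBayes of limma 3.58.1, R 4.3.3). Within each comparison p-values were adjusted over all genes by Benjamini-Hochberg, and an adjusted p below 0.05 was a call. Errors of changes are standard errors, and intervals cover 95%. Relations were tested with 100000 permutations of animals within groups (Python 3.11.15, numpy 2.4.6). Slopes on animal number were fitted with a mean for each run of animals. The slopes and the correlations of list means were added after the values were seen. The fits were tested on simulated data. No arrays were identical (highest r 0.997).

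The members and gene lists were chosen with earlier results of these data known. The genes named are all members, every called gene of the lists of activators and opposite phase, other clock components and other rhythmic outputs, and the 10 genes most and least like the members' mean. Any other gene was picked with its values in view. Alternatives were no filter, the mean over all probe sets, renewed quantile normalization, only the arrays compared, a robust variance trend, array weights, subsets of corn oil controls, the amount of RNA solution as a block and each array left out. Animal number relative to the mean of its run, as a covariate, was added later.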

Additional observations from a re-analysis of the deposited data

Results flagged for a closer look

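Of 120 groups of member values tested, 2 held an animal far from the others, where chance gives about 1 group in 20. Per1 was 8.22 in water control animal 127, and between 9.13 and 9.26 in the other animals of its group. Nr1d1 was 7.12 in diazinon animal 21, and between 8.22 and 8.43 in the other animals.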

How the results depend on the processing

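Outside fits that left out an animal, 140 of 182 counts of members called and relations stayed within 1.5 times the reported count or on the same side of the threshold, and 42 did not. Within that range coumarin had a count of 2 and lost a call for Dbp with only the arrays compared (adjusted p = 0.0862), for Tef with the mean over probe sets (0.0886) and for Per3 with corn oil controls numbered 93 to 99 (0.0652). Of 418 alternative values of single member changes 349 kept their direction and side of the threshold, 51 lost their call, 9 gained one and 9 changed sign. Counts below are members called by limma, and the cause of a shift was not tested. The share of all genes called was not kept for the alternative fits, here or above. These counts therefore do not set the members apart from other genes. With only the arrays compared, the counts were 1 for 1,5-naphthalenediamine, 1 for 2,2-bis(bromomethyl)-1,3-propanediol, 3 for malathion, 0 for 1,2-dibromoethane, 0 for N-methylolacrylamide, 0 for water against feed controls, 4 for feed controls between sets and 6 between the naphthalene amines. With array weights they were 1 for N-(1-naphthyl)ethylenediamine dihydrochloride, 3 for 2,2-bis(bromomethyl)-1,3-propanediol, 2 for malathion, 1 for 1,2-dibromoethane, 2 for benzene, 2 for 2-chloromethylpyridine hydrochloride, 2 for water against feed and 2 for corn oil against water controls, 5 for feed controls between sets and 6 between the naphthalene amines. With animal number as a covariate, chosen after seeing the data, they were 2 for 2,3-benzofuran, 3 for malathion, 4 for 1,2-dibromoethane and 5 for coumarin. They were 1 for corn oil against water controls and 5 between the naphthalene amines. The number was taken relative to the mean of its run, so it left the estimates as they were and changed only their errors. It does not adjust a difference between groups for animal number. Renewed quantile normalization gave 1 for 2,3-benzofuran, 1 for feed controls between sets and 2 between the naphthalene amines. The mean over probe sets gave 0 for N-methylolacrylamide, 0 for water against feed and 1 for corn oil against water controls. No filter gave 1 for 1,2-dibromoethane and 1 for feed controls between sets, and the robust trend gave 1 for 1,2-dibromoethane. Corn oil controls numbered 93 to 99 gave 1 for 1,2-dibromoethane, and the others gave 5 for coumarin and 4 for benzene. Leaving out single animals gave 0 to 1 for 2,3-benzofuran, malathion, both contrasts of the water controls and the naphthalene amines, 0 to 4 for 1,2-dibromoethane, 1 to 5 for coumarin, 0 to 2 for N-methylolacrylamide, 1 to 2 for feed controls and 2 to 4 for corn oil controls between sets. The Dbp estimate, never called, changed sign for diazinon with array weights (-0.0464) and with the amount of RNA as a block (-0.0535). Leaving out animals it ran from -0.22 to 0.736 for diazinon, -0.0651 to 0.852 for 4-nitroanthranilic acid and -0.33 to 0.934 for N-methylolacrylamide. In set 1 alone, r with Dbp was 0.192 for Per1, -0.12 for Ciart, 0.671 for Per3, -0.48 for Clock and -0.52 for Npas2, and in set 2 -0.31 for Clock. Slopes on animal number passed for 2 members in set 1 and 0 in treated animals. No paired analysis was possible because the groups compared share no animal. Levels near background, as for Bhlhe41 and Npas2, limit what could be seen.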

Other observations

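Outside the clock lists, heat shock chaperone genes had some of the steepest slopes on animal number within runs. Hspa1a fell by 0.374 ± 0.053 (SE) on the log2 scale per number (limma adjusted p = 2.27e-05), Hspa1b by 0.332 ± 0.051 (6.92e-05) and Dnajb1 by 0.163 ± 0.023 (2.27e-05). By p-value Dnajb1 ranked 1st, Hspa1a 2nd, Nfil3 4th, Hspa1b 5th and Dbp 9th of 14593 genes. Adm, a vasodilator peptide, fell by 0.102 ± 0.017 (adjusted p = 0.000402), and Nr4a1, an immediate early nuclear receptor, by 0.106 ± 0.019 (0.000926). These genes were picked with their values in view.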
